A study of Mus musculus with 12 samples.

Results

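The genes described here changed in the same direction 3 days after optic nerve crush in 2 classes of mouse retinal ganglion cell. RNA was sequenced from pools of hand-picked fluorescent cells, 12 of 12 libraries were used, and 640 of the 18269 genes tested (3.5%) met the definition given below. Opn4 cells came from Opn4CreERT/+;R26-tdTomatof/f mice, in which tamoxifen-activated Cre under the melanopsin locus switches on a red reporter in intrinsically photosensitive ganglion cells. HB9 cells came from mice with the HB9:GFP transgene, in which green fluorescence labels ganglion cells that respond to the direction of moving light and dark edges (ON-OFF direction-selective cells). Both lines received tamoxifen (0.124 mg per g body weight on 5 days from postnatal day 21) and had crush or sham surgery at postnatal day 42. Each of the 4 groups (Opn4 sham, Opn4 crush, HB9 sham, HB9 crush) held 3 libraries, each of 30 cells pooled from 3 collections of 10 cells, with 10 cells taken per animal. All 12 libraries, sham and crush alike, shared a papain treatment (17 U per ml for 30 minutes) and a limit of 2 hours after euthanasia. What this handling did to stress and immediate early genes was not tested. Cre, the floxed reporter and the cell class cannot be told apart, but crush was compared with sham within each line. The libraries had been scaled to totals of 15104446 to 28195798 reads and held 15021 to 16514 genes at 1 RPKM or more. Replicates are separate pools. The labels do not say whether pools of different libraries shared animals, so p-values measure only the spread between pools.

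Crushing the optic nerve cuts the axon of every ganglion cell that projects through it, while the cell body stays in the retina. In injured neurons a kinase cascade led by the dual leucine zipper kinase (DLK, gene Map3k12) activates Jun N-terminal kinase, which phosphorylates the transcription factor Jun. Jun pairs with ATF factors such as Atf3 on AP-1 and CRE sites. The same cascade and the integrated stress response, in which the factor Atf4 turns on amino acid supply genes, are known in ganglion cells both for regrowth genes and for cell death genes.

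Levels are RPKM (reads scaled by gene length and library total), and effects are differences of the group means of log2(RPKM + 1), given ± SE. The mean crush effect is the average of the crush minus sham differences in the 2 classes. A gene is said to have risen, or fallen, in both classes when this mean passed an adjusted p of 0.05 (limma, Benjamini-Hochberg over all genes tested, two-sided) and, within each class, all 3 crush libraries lay above, or below, all 3 sham libraries. The mean effect passed for 6.98% of the genes tested, 754 higher (4.13%) and 521 lower (2.85%). Of these, 383 rose in both classes (2.1% of the genes tested) and 257 fell in both (1.41%). After centring every library on its median, which lowered the median mean effect of all genes by 0.11, 561 genes were higher and 808 lower, so that the higher share went from 59.1% to 41.0%. Under that scaling 286 genes rose in both classes and 437 fell. The balance between risers and fallers thus depended on the scaling. None of the 122 named genes past the threshold changed direction in any of the alternative settings that gave it a value (24 for 120 of them, and 1 fewer for Spata33 and Tfap2b). Most were named for large or clear effects in these same libraries, so a change of direction was unlikely from the start.

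The 3 genes chosen to mark the injury response were far higher in every crush library than in any sham library. After sham, Atf3 and Ecel1 were near 0, and Jun was not. Atf3 (chromosome 1, 191170296 to 191183340, mm10) encodes a stress-induced partner of Jun. Its sham values were 0, 0.20 and 0.0469 RPKM in Opn4 cells and 0.0674, 0.0409 and 0.152 RPKM in HB9 cells. After crush they were 77.9, 56.4 and 43.4 RPKM in Opn4 cells and 661, 486 and 473 RPKM in HB9 cells. Jun (chromosome 4, 95049034 to 95052222) was already expressed after sham, at 10.9, 11.3 and 10.95 RPKM in Opn4 cells and 28.4, 30.8 and 18.6 RPKM in HB9 cells. It reached 223, 219 and 294 RPKM in Opn4 cells and 253, 243 and 258 RPKM in HB9 cells after crush. The crush libraries of the 2 classes therefore held Jun at overlapping levels, while those of Atf3 did not overlap. Ecel1 (chromosome 1, 87147655 to 87156521), a membrane protease of injured neurons, went from at most 0.53 RPKM in the Opn4 sham libraries to 26.5, 101 and 59.7 RPKM. In HB9 cells it went from at most 0.104 RPKM to 1047, 548 and 509 RPKM. The mean crush effects were 7.35 ± 0.22 for Atf3 (adjusted p = 1.61e-09), 3.80 ± 0.15 for Jun (2.20e-08) and 7.42 ± 0.32 for Ecel1 (5.40e-08).

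**Figure D1:**
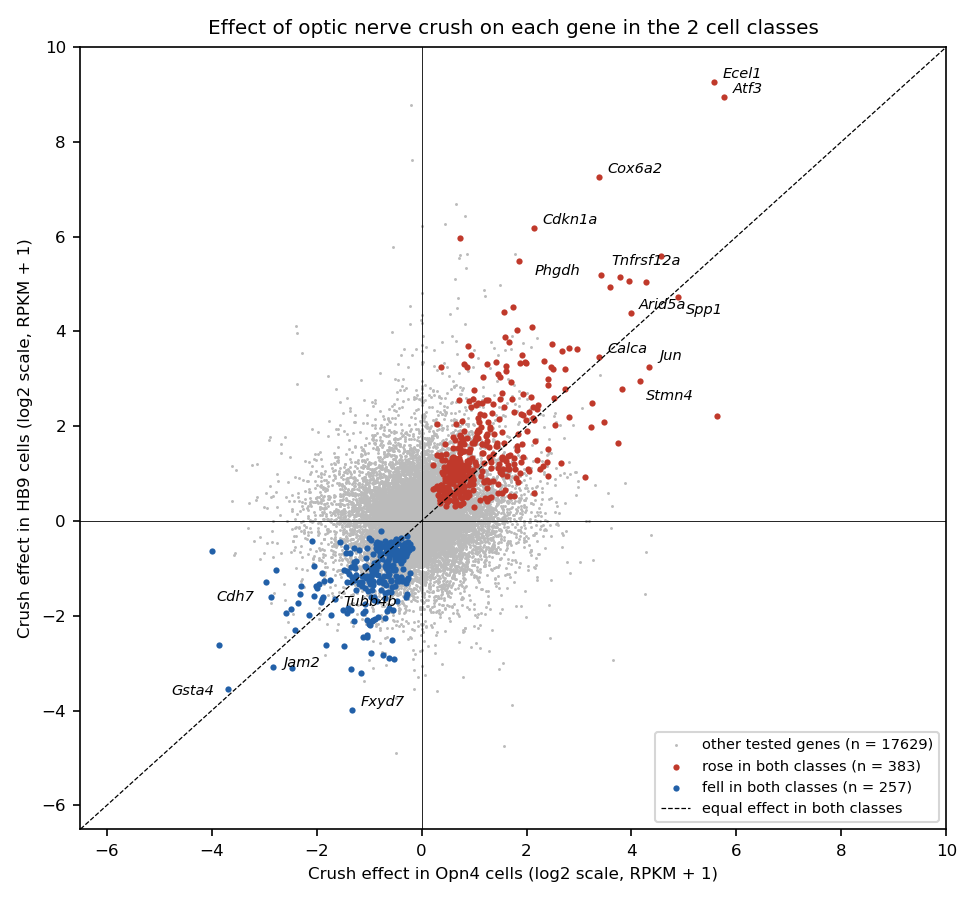
Each point is 1 of the 18269 genes tested, placed by its crush effect in Opn4 cells (x axis) and its crush effect in HB9 cells (y axis), both on the log2(RPKM + 1) scale. Red points rose in both classes (383), blue points fell in both (257), and the dashed line marks equal effects: Atf3 and Ecel1 lie above it, Jun below.

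Promoters of genes that moved in both classes are printed to show the sites that these factor families bind. Each is the RefSeq sequence from 250 bases before to 50 bases after the gene start (GRCm38.p6, the assembly behind mm10), 5′ to 3′ on the gene's strand, with motif matches in capitals. The C/EBP-ATF composite element that Atf4 binds in amino acid response genes was searched as TGATGNAA on both strands. It occurred in the Atf3 promoter on the minus strand of chr1:191183284-191183583, in that of Chac1, a glutathione-degrading enzyme, on the plus strand of chr2:119350992-119351291, and in that of Asns, asparagine synthetase, on the minus strand of chr6:7693160-7693459.
Atf3: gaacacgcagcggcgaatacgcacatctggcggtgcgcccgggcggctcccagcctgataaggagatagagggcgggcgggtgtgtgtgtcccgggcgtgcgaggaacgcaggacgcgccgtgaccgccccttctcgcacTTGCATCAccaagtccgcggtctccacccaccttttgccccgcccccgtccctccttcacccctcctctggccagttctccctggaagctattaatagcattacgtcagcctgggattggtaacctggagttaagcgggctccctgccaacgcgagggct
Chac1: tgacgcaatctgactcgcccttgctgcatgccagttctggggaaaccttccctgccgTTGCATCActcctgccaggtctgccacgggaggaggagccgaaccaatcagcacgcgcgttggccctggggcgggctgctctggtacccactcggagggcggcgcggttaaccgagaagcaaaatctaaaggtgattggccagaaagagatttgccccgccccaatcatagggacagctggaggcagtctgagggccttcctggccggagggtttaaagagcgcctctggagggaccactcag
Asns: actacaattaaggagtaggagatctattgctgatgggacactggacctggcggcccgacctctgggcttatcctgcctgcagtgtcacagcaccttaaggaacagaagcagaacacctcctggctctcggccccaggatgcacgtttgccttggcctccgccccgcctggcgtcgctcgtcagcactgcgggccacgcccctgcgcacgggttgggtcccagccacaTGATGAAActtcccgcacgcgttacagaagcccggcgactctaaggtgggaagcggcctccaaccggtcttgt
The Jun promoter (minus strand, chr4:95052173-95052472) is shown for the site TGACATCA, a variant of the AP-1 and CRE sequences that was added to the search after this promoter had been read. Dusp1, a phosphatase that switches off MAP kinases, is shown for a full cAMP response element, TGACGTCA (minus strand, chr17:26508423-26508722). S100a11, a calcium-binding protein, is shown for its pair of AP-1 sites, TGANTCA (plus strand, chr3:93520246-93520545).
Jun: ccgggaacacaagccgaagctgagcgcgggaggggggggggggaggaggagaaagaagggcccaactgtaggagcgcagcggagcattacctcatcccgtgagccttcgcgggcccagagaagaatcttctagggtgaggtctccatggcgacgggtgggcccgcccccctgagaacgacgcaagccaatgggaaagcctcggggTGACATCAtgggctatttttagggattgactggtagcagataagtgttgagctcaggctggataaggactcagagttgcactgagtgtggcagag
Dusp1: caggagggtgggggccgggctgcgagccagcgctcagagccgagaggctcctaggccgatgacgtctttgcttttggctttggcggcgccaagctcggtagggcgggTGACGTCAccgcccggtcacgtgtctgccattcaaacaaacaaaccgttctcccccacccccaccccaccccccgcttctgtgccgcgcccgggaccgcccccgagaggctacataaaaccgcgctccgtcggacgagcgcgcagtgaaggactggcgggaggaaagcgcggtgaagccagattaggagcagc
S100a11: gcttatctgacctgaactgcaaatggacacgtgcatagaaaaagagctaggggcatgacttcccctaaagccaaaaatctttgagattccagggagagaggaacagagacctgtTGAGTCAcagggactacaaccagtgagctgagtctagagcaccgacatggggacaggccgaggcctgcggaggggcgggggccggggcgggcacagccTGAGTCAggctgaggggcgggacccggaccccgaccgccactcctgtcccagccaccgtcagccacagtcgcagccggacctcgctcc
A RefSeq start within 1000 bases of the listed start was found for 228 of the 383 risers, 151 of the 257 fallers and 9558 of all genes tested. The composite element matched in 10 riser promoters (4.39%), against 1.32% of faller promoters and 2.03% of all. Those 10 were Serpinf1, Avil, Atf3, Chac1, Asns, Gars, Me3, Aars, Arid5a and Iars. AP-1 matched in 7.89% of riser, 3.97% of faller and 4.66% of all promoters, and the full cAMP response element in 5.26%, 1.99% and 3.24%. TGACATCA matched in 4.39%, 3.97% and 2.12%. The core TGACG, which the full element contains, matched in 38.2%, 28.5% and 32.0% (it is not in capitals above). These shares describe letters in a window, and binding was not measured.

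Transcription factors of the AP-1, ATF and C/EBP families were among the genes that rose in both classes. In the AP-1 list 4 of 11 tested members passed for a higher mean effect and none for a lower one, and all 4 rose in both classes: Jun, Jund, Fosl1 and Mafk. The list's median effect was 0.60, against 0.04 over all genes tested. Jund, a constitutive Jun relative, was at 69.7, 62.8 and 67.6 RPKM after sham and 214, 209 and 193 RPKM after crush in Opn4 cells. HB9 cells held Jund at 49.2, 50.9 and 50.5 RPKM after sham and 108, 123 and 134 RPKM after crush (mean effect 1.43 ± 0.11, adjusted p = 7.37e-06). The 3 libraries of each group lay close together. That crush and sham did not overlap within a class follows from the definition of rising in both. Fosl1, a Fos relative, was at most 0.761 RPKM in any sham library and reached 20.4 RPKM after crush, though 1 Opn4 crush library held only 0.831 RPKM.

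Among ATF and C/EBP factors 7 of 13 tested members were higher, none was lower, and 6 rose in both classes: Atf3, Atf5, Crem, Cebpb, Cebpd and Ddit3. Ddit3 (CHOP), a stress factor linked to cell death, was at 36.1, 30.2 and 18.6 RPKM after sham and 67.3, 194 and 90.9 RPKM after crush in Opn4 cells. In HB9 cells its values were 48.4, 49.5 and 50.02 RPKM after sham and 611, 529 and 578 RPKM after crush (mean effect 2.71 ± 0.23, adjusted p = 2.35e-05). Crush lay apart from sham within each class, as the definition of rising in both requires. The HB9 crush libraries stood above all Opn4 crush libraries. Atf5, itself a target of Atf4, moved by nearly the same amount in each class, 2.13 ± 0.41 in Opn4 and 2.18 ± 0.41 in HB9 cells. Atf4 passed for the mean effect (0.80 ± 0.16, adjusted p = 0.0102) but was not a shared riser. It was at 102, 174 and 115 RPKM after sham and 99.7, 175 and 129 RPKM after crush in Opn4 cells, against 208, 166 and 197 RPKM and then 613, 506 and 562 RPKM in HB9 cells.

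Immediate early genes, which respond to stimuli without new protein synthesis, had 7 of 15 tested members higher and none lower, and all 7 rose in both classes. Egr1 was at 11.8, 46.0 and 33.7 RPKM after sham and 111, 159 and 99.0 RPKM after crush in Opn4 cells, and moved from 30.9, 33.2 and 21.2 RPKM to 94.7, 128 and 164 RPKM in HB9 cells. Its effects in the classes were 2.14 ± 0.41 and 2.13 ± 0.41. Btg2, an antiproliferative gene, and Klf6, a Krüppel-like factor that favours axon growth, had mean effects of 1.99 ± 0.30 and 1.17 ± 0.15. Dusp1 had a mean effect of 2.17 ± 0.19 (adjusted p = 2.51e-05), with 64.2, 149 and 74.5 RPKM after sham and 299, 445 and 389 RPKM after crush in Opn4 cells. The HB9 libraries held it at 29.5, 30.0 and 27.0 RPKM and then at 132, 152 and 153 RPKM. Csrnp1, a nuclear protein, and Arid5a, an RNA-binding protein that stabilises Stat3 mRNA, rose by 2.85 ± 0.46 and 4.18 ± 0.41. The regeneration transcription factor list had 5 of 10 members higher, and Stat3 (1.38 ± 0.21), Myc, Klf6 and Arid5a rose in both classes. Klf9, a growth-restraining Krüppel-like factor, was higher on average (0.71 ± 0.16, adjusted p = 0.0165), with overlap in HB9 cells. Sox11 did not pass (1.37 ± 0.46, adjusted p = 0.101).

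The DLK-JNK list, which also holds scaffolds and phosphatases, showed a smaller and mixed pattern. Of 13 tested members 3 were higher (23.1%, against 4.13% of all genes tested) and 2 lower (15.4%, against 2.85%). The 3 rose in both classes: the scaffold Mapk8ip1 (0.87 ± 0.16) and the phosphatases Dusp8 (1.55 ± 0.17) and Dusp16. The kinases Mapk10 (JNK3; −0.77 ± 0.16, adjusted p = 0.0128) and Map2k4 (−0.46 ± 0.12, adjusted p = 0.0394) fell in both, the latter losing its call in 15 of the 24 alternative settings. Map3k12 did not pass (0.43 ± 0.18, adjusted p = 0.201). The MAP kinase phosphatase list as a whole had 6 of 12 members higher and none lower, with a median of 1.12. Dusp14, the fourth member to rise in both classes beside Dusp1, Dusp8 and Dusp16, had a mean effect of 2.56 ± 0.46.

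**Figure D2:**
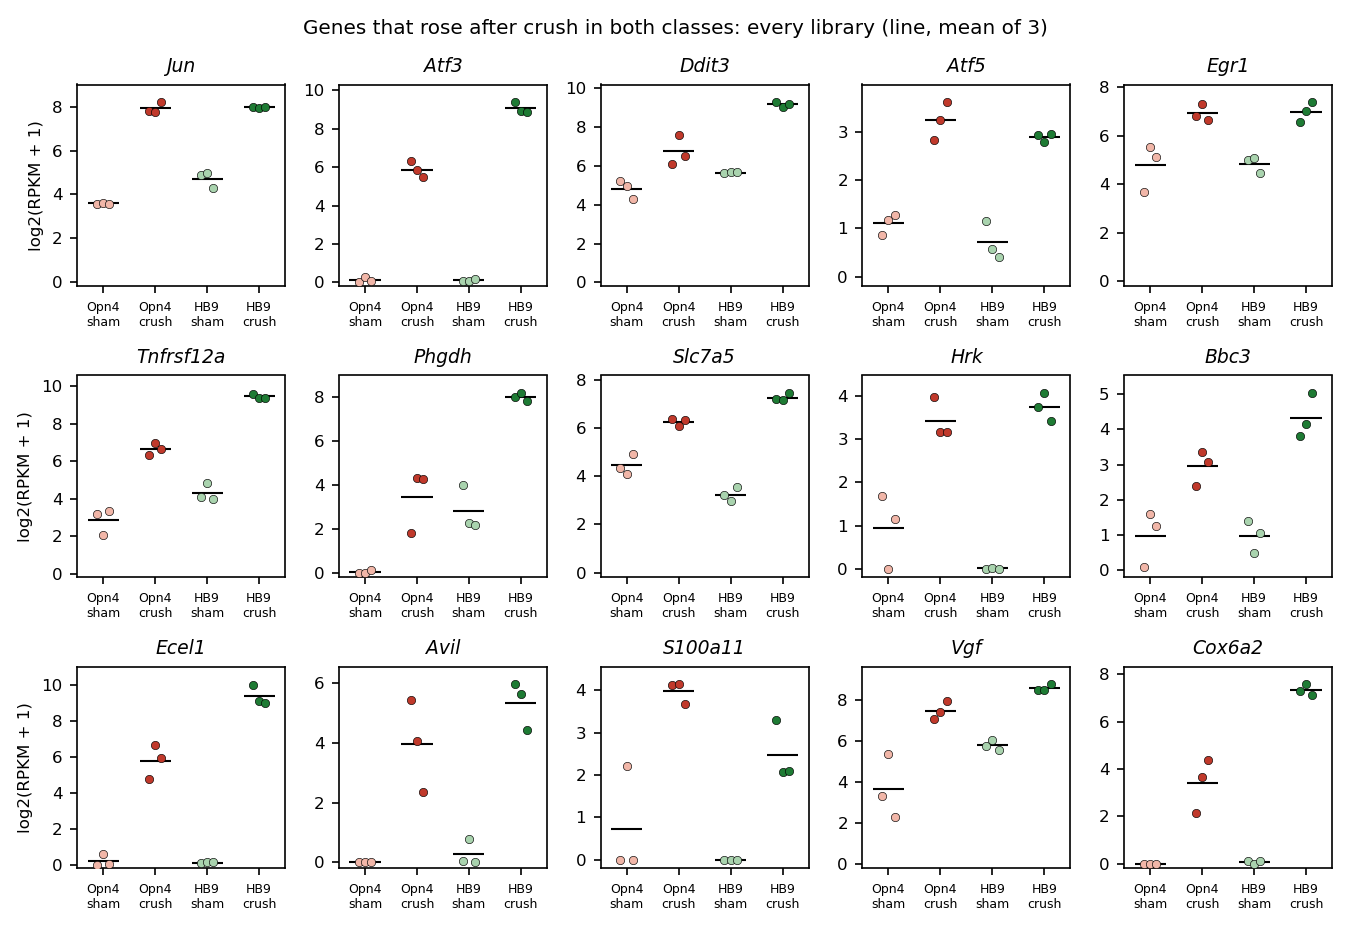
Level of 15 genes that rose in both classes, as log2(RPKM + 1) in each of the 12 libraries (points) with the group mean (line). In every panel the 3 crush libraries lie above the 3 sham libraries of the same class, as the definition requires. Atf3, Ecel1 and Cox6a2 are highest in the HB9 crush libraries.

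Receptors and secreted signals formed a further group. Tnfrsf12a, the receptor for the cytokine TWEAK, was at 8.02, 3.16 and 9.08 RPKM after sham and 78.6, 123 and 99.3 RPKM after crush in Opn4 cells. The HB9 values went from 16.3, 27.5 and 14.996 RPKM to 785, 676 and 656 RPKM (mean effect 4.46 ± 0.23, adjusted p = 4.28e-07). No crush value came near a sham value in either class. Of 19 tested genes on the cytokine and growth factor receptor list 5 were higher (26.3%, against 4.13% of all genes tested). None was lower, and all 5 rose in both classes. They were Tnfrsf12a, Cntfr (the CNTF receptor), Ret (the GDNF family receptor, 2.02 ± 0.29), Fgfr1 (2.08 ± 0.33) and the transcription factor Stat3, which is on the same list. Among 24 secreted factors 7 were higher (29.2%) and 1 lower (4.17%), against 4.13% and 2.85% of all genes tested. Only Vgf and Spp1 rose in both classes. Vgf, a neuropeptide precursor, went from 8.88, 40.01 and 3.94 RPKM to 133, 169 and 246 RPKM in Opn4 cells and from 52.2, 64.9 and 46.5 RPKM to 358, 358 and 428 RPKM in HB9 cells (3.31 ± 0.39, adjusted p = 0.000228). Spp1, osteopontin, varied widely between sham libraries, with 151, 33.7 and 0.593 RPKM in Opn4 cells and 547, 261 and 3.24 RPKM in HB9 cells. Its crush libraries were more alike, at 503, 679.5 and 633 RPKM and at 2482, 1948 and 2333 RPKM. The mean effect of Spp1, 4.81 ± 1.16 (adjusted p = 0.026), lost its call in 5 of 24 alternative settings, among them the removal of any 1 HB9 crush library. Calca, the CGRP precursor, rose by 3.42 ± 0.57.

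Regeneration-associated genes, the set known from regrowing peripheral neurons, were mostly higher on average, with 16 of 30 tested members higher and 2 lower. The list's median effect was 0.45 in Opn4 cells and 1.85 in HB9 cells. Only 4 of the 16 rose in both classes: Ecel1, Tnfrsf12a, Stmn4 and S100a11. Stmn4, a tubulin-binding stathmin, was at 4.37, 80.4 and 124 RPKM and then 663, 722 and 651 RPKM in Opn4 cells, and at 70.5, 63.3 and 70.8 RPKM and then 568, 474 and 566 RPKM in HB9 cells (3.56 ± 0.57, adjusted p = 0.00217). S100a11 was at 0 RPKM in 5 of 6 sham libraries and between 3.19 and 16.7 RPKM in every crush library. Gap43, the growth cone protein, had a mean effect of 0.64 ± 0.13 (adjusted p = 0.00867) but overlapped in Opn4 cells, where it was at 486, 356 and 417 RPKM after sham and 456, 489 and 589 RPKM after crush. Sprr1a, a cornified envelope protein of regrowing neurons, stood at 1249.8, 814 and 122 RPKM in HB9 crush libraries and at most 0.657 RPKM elsewhere, so its mean effect came from 1 class. Avil, an actin-binding protein of sensory neurons, rose in both, from at most 0.705 RPKM in any sham library to 42.5, 15.6 and 4.16 RPKM in Opn4 cells and 61.3, 49.0 and 20.4 RPKM in HB9 cells (4.51 ± 0.48, adjusted p = 0.000113).

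Genes of amino acid supply and tRNA charging were higher on average after crush. For serine, one-carbon and asparagine synthesis 8 of 12 tested members were higher and none was lower, with a median effect of 0.83 in Opn4 cells and 2.62 in HB9 cells. Phgdh, Shmt2 and Asns rose in both classes. Phgdh, the entry enzyme of serine synthesis, was at 0, 0 and 0.0935 RPKM after sham and 2.48, 19.1 and 18.5 RPKM after crush in Opn4 cells, and went from 14.9, 3.89 and 3.52 RPKM to 259, 289 and 226 RPKM in HB9 cells (4.31 ± 0.45, adjusted p = 0.000105). Asns was at 100.5, 111 and 132 RPKM and then 244, 172 and 176 RPKM in Opn4 cells, and at 261, 191 and 190.3 RPKM and then 1033, 899 and 830.4 RPKM in HB9 cells (1.44 ± 0.13, adjusted p = 3.81e-05). Lack of overlap within class was required of both enzymes by the definition. The HB9 crush libraries held the highest values.

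Of 14 amino acid transporters 7 were higher and none lower, with Slc7a5, Slc3a2 and Slc38a2 rising in both classes. Slc7a5, the large neutral amino acid transporter, was at 19.6, 15.9 and 29.2 RPKM after sham and 82.3, 67.3 and 81.2 RPKM after crush in Opn4 cells. Its HB9 values went from 8.23, 6.84 and 10.7 RPKM to 148, 142 and 174 RPKM (2.93 ± 0.18, adjusted p = 1.67e-06). Its partner chain Slc3a2 moved by 0.80 ± 0.25 in Opn4 cells and by 3.32 ± 0.25 in HB9 cells. Of 21 aminoacyl-tRNA synthetases 12 were higher and none lower, and Aars, Cars, Gars, Iars, Nars and Sars rose in both classes. Their list had a median effect of 0.40 in Opn4 cells and 1.34 in HB9 cells. Sars was at 162, 154 and 195 RPKM and then 235, 438 and 397 RPKM in Opn4 cells, and at 308, 249 and 274 RPKM and then 926, 878 and 919 RPKM in HB9 cells (1.37 ± 0.14, adjusted p = 0.000105). Of 15 integrated stress response targets 10 were higher and none lower, and Chac1, Cebpb, Ddit3 and Atf5 rose in both classes. Cebpb, Ddit3 and Atf5 are also counted above among the ATF and C/EBP factors. The median effect of these targets was 0.82 in Opn4 cells and 2.435 in HB9 cells. Chac1 was at 9.12, 8.09 and 6.56 RPKM and then 16.9, 29.6 and 34.9 RPKM in Opn4 cells, and at 20.2, 18.2 and 33.6 RPKM and then 238, 203 and 210.4 RPKM in HB9 cells (2.39 ± 0.22, adjusted p = 3.26e-05). The unfolded protein response list, the folding arm of endoplasmic reticulum stress, differed from this. Of 18 members 3 were higher (16.7%, against 4.13% of all genes tested). Xbp1 alone rose in both classes (0.65), and the list's median was −0.02.

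**Figure D3:**
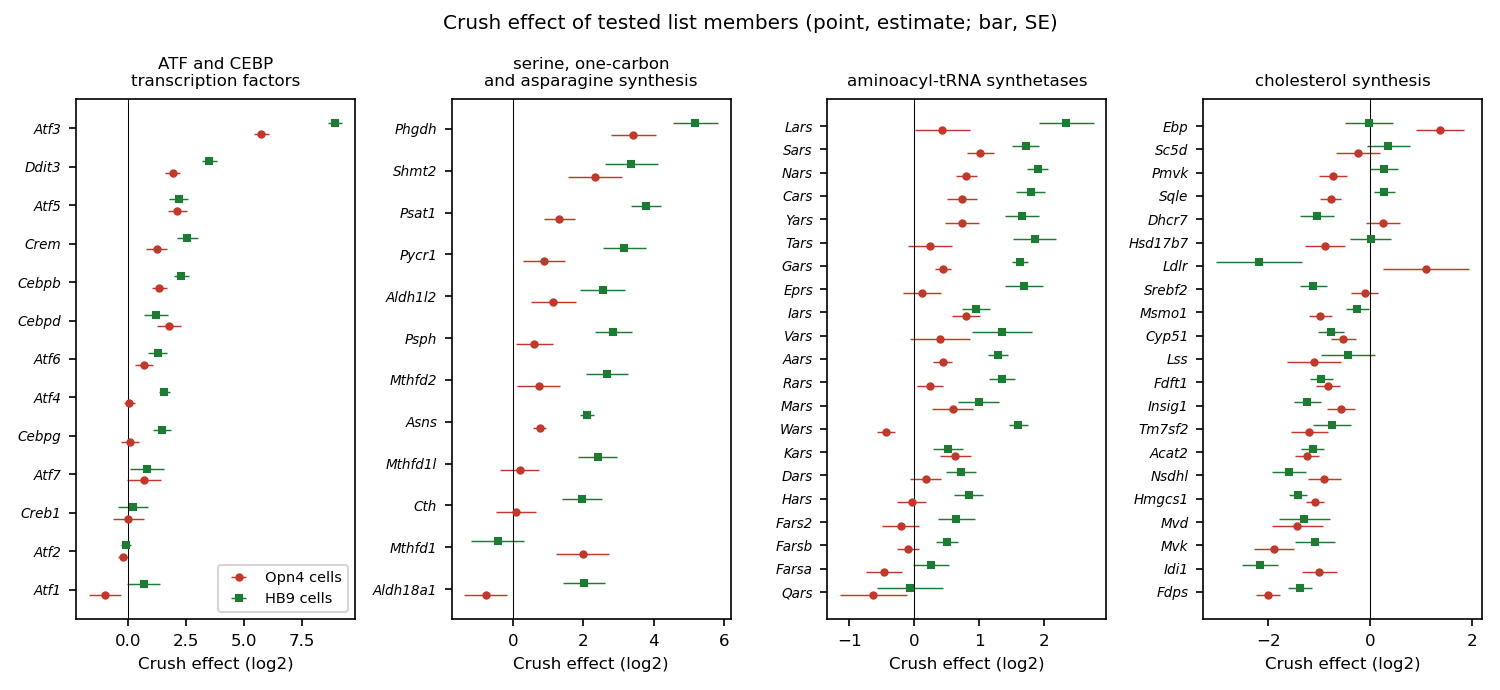
Crush effect (log2 scale) of tested members of 4 gene lists in Opn4 cells (red circles) and HB9 cells (green squares), with SE bars. Phgdh lies highest in the serine list, and no cholesterol synthesis gene passed for a higher mean effect.

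Some cell death genes also rose. Of 22 p53 targets and BCL-2 family members 6 were higher (27.3%, against 4.13% of all genes tested). None was lower, 16 did not pass, and 5 rose in both classes, among them Cdkn1a, Bbc3, Bcl2l11 and Hrk. Hrk, a BH3-only protein that promotes neuronal death, was at 2.22, 0 and 1.20 RPKM after sham and 14.7, 7.91 and 7.95 RPKM after crush in Opn4 cells. The HB9 libraries went from 0, 0.0143 and 0 RPKM to 12.3, 15.8 and 9.74 RPKM (3.11 ± 0.34, adjusted p = 0.000155). Bbc3, which encodes PUMA, another BH3-only protein, was at 0.0652, 2.01 and 1.41 RPKM and then 4.28, 9.34 and 7.44 RPKM in Opn4 cells. Its HB9 libraries held 1.62, 0.404 and 1.08 RPKM after sham and 13.0, 16.7 and 31.7 RPKM after crush (2.66 ± 0.37, adjusted p = 0.000857). Crush and sham did not overlap for either gene in either class, which the definition of rising in both requires. Cdkn1a, the cell cycle inhibitor p21, differed between classes after sham, with 41.3, 57.7 and 26.1 RPKM in Opn4 cells and 0.741, 1.13 and 0.0453 RPKM in HB9 cells. After crush it reached 199.5, 125 and 231 RPKM in Opn4 cells and 115, 119 and 107 RPKM in HB9 cells (4.17 ± 0.25, adjusted p = 1.37e-06).

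Heat shock genes had 3 of 17 members higher (17.6%, against 4.13% of all genes tested). Of these, the chaperones Hsp90aa1 (0.80 ± 0.10) and Hspb8 (1.54 ± 0.23) rose in both classes. Of 17 interferon-stimulated and MHC class I genes 3 were higher (17.6%) and 1 lower (5.88%, against 2.85% of all genes tested). The list's median was 0.90, against 0.04 over all genes tested. The 3 that rose in both were B2m (3.10 ± 0.46), H2-D1 (0.80 ± 0.11) and H2-K1, the classical MHC class I light and heavy chains, and H2-K1 lost its call in 11 of 24 settings. Cox6a2, the muscle-type subunit of cytochrome c oxidase, was at 0 RPKM in all 3 Opn4 sham libraries and 3.42, 11.7 and 19.5 RPKM after crush. HB9 sham libraries held at most 0.0765 RPKM and HB9 crush libraries 155, 189 and 138 RPKM (5.32 ± 0.36, adjusted p = 3.23e-06). Its effect in Opn4 cells, like that of other genes at 0 after sham, depends on the pseudocount of 1. Emp3, Serpinb9 and Cbln2, also among the top risers, had mean effects of 2.76 ± 0.43, 2.86 ± 0.59 and 2.97 ± 0.52.

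The genes that fell in both classes had a median mean effect of −0.93, and those that rose one of 1.11. With each effect lowered by the shift of median centring, the same genes had medians of −1.05 and 0.997, so which set changed more depended on the scaling. Ranked by the smaller of the 2 class effects, the largest fall was that of Gsta4, a glutathione transferase that clears lipid peroxidation products. It was at 83.5, 76.1 and 134 RPKM after sham and 12.8, 0 and 28.9 RPKM after crush in Opn4 cells, and at 96.3, 59.97 and 54.7 RPKM and then 5.03, 9.04 and 2.49 RPKM in HB9 cells (−3.61 ± 0.65, adjusted p = 0.00463). The junctional adhesion molecule Jam2 had a mean effect of −2.96 ± 0.50, and the TGF-beta family ligand Gdf10 one of −2.79 ± 0.40. The adhesion molecule Cdh7 and the copine Cpne9 had mean effects of −2.23 ± 0.35 and −2.21 ± 0.28. Of the other named fallers, Ccdc74a, Eno3, Caln1, Raph1, Spata33, Cdo1, Rnf112, Rnf152 and Kcnk4 had mean effects between −2.35 and −1.68. Kcnk4 lost its call in 15 of 24 settings.

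Cholesterol synthesis had the largest share of lower members of any list examined. Of 23 tested genes 14 were lower and none was higher, 10 fell in both classes, and the list's median was −0.89. Hmgcs1, which makes the pathway's HMG-CoA, was at 540.2, 719 and 602 RPKM after sham and 289.8, 248 and 344 RPKM after crush in Opn4 cells. In HB9 cells it went from 325, 318 and 303 RPKM to 120.0, 139 and 95.3 RPKM (−1.25 ± 0.12, adjusted p = 6.51e-05). Fdps, farnesyl diphosphate synthase, went from 225, 222 and 237 RPKM to 49.9, 67.0 and 52.0 RPKM in Opn4 cells and from 121, 112 and 119 RPKM to 29.6, 65.5 and 45.6 RPKM in HB9 cells (−1.69 ± 0.17, adjusted p = 8.02e-05). Neither gene overlapped between crush and sham in either class, which the definition of falling in both requires. The other fallers ran along the pathway, among them Acat2 (−1.19 ± 0.16), Mvk, Mvd, Idi1 (−1.58 ± 0.25), Fdft1 and Nsdhl. Srebf2, the factor that drives these genes, did not pass (−0.61 ± 0.19, adjusted p = 0.0721).

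Tubulins were the other broad group of fallers. Of 21 tubulin, stathmin and related genes 12 were lower and 2 higher, and 10 fell in both classes. Tubb4a, a neuronal beta-tubulin, was at 1121, 1149 and 999 RPKM after sham and 527, 499.8 and 563 RPKM after crush in Opn4 cells, and at 1122, 1099 and 1055 RPKM and then 227, 408 and 179.7 RPKM in HB9 cells (−1.56 ± 0.16, adjusted p = 8.02e-05). The alpha-tubulin Tuba4a had a mean effect of −1.49 ± 0.16 and the beta-tubulins Tubb5 and Tubb4b −1.24 ± 0.17 and −1.75 ± 0.14. Tubulin genes are near copies of one another, so reads may have been shared between them: the pseudogene Tubb4b-ps1 moved by −1.90 and −1.64 in the 2 classes, against −1.88 and −1.61 for Tubb4b. Fam166a, which overlaps Tubb4b by position on chromosome 2, had a mean effect of −1.81 ± 0.18, and its reads cannot be told apart from those of its neighbour where they overlap. Stmn4 and Tubb6 were the members with a higher mean effect, and Stmn4 rose in both classes.

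Genes of ganglion cell identity and excitability were lower where they changed. Of 24 ganglion cell genes 4 were lower (16.7%, against 2.85% of all genes tested), none was higher, and Rbpms, Nefh and Ebf1 fell in both classes. Rbpms, the RNA-binding protein used to mark ganglion cells, was at 212, 183 and 198 RPKM and then 103, 127 and 115 RPKM in Opn4 cells, and at 226, 227 and 272 RPKM and then 98.9, 90.3 and 122 RPKM in HB9 cells (−0.997 ± 0.12, adjusted p = 0.000204). It remained well above 1 RPKM in every library, and fewer ganglion cells in a pool and less RNA per cell cannot be told apart. Nefh, the heavy neurofilament, had a mean effect of −0.94 ± 0.20, while Nefl, the light chain, did not pass (−0.44, adjusted p = 0.085). Of 12 markers of photosensitive cells and 11 of direction-selective cells none moved the same way in both classes. Only 3.5% of all genes tested did, so lists this short say little on that point.

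Of 25 potassium channel genes 4 were lower, with Kcna2 (−1.28 ± 0.21) and its beta subunit Kcnab2 (−0.95 ± 0.12) falling in both classes. Of 20 sodium and calcium channel genes 4 were lower (20.0%), none was higher, and 3 fell in both. Cacnb3, a calcium channel beta subunit, was at 133, 99.6 and 90.8 RPKM and then 36.9, 36.2 and 45.7 RPKM in Opn4 cells, and at 136, 189.9 and 219.9 RPKM and then 61.3, 34.1 and 56.5 RPKM in HB9 cells (−1.63 ± 0.18, adjusted p = 0.000176). Scn3b, a sodium channel beta subunit, had a mean effect of −1.36 ± 0.20. Scn2a1, the alpha subunit, had one of −0.62 ± 0.17 that lost its call in 14 of 24 settings. Of 26 glutamate, GABA and glycine receptor genes only Gabbr2 passed, and it fell in both (−1.22 ± 0.18). That share, 3.85% lower, is near the one over all genes tested. Of 27 synaptic release genes 3 were higher and 3 lower (11.1% each, against 4.13% and 2.85% of all genes tested). Only 7 had a positive estimate. The list's median was −0.20 (−0.01 in Opn4 and −0.54 in HB9 cells), against 0.04 over all genes tested. The synaptotagmins Syt4 (1.01 ± 0.12) and Syt11 (0.56 ± 0.10) and Syn1 rose in both classes, and Snap25, a core fusion protein, fell in both (−0.54 ± 0.07). Snap25 lost its call under quantile normalization and without the intensity trend. In glycolysis 2 of 20 genes were higher and 5 lower, with the neuronal enolase Eno2 (0.54 ± 0.10) rising and the aldolase Aldoc (−1.31 ± 0.23) falling in both classes.

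**Figure D4:**
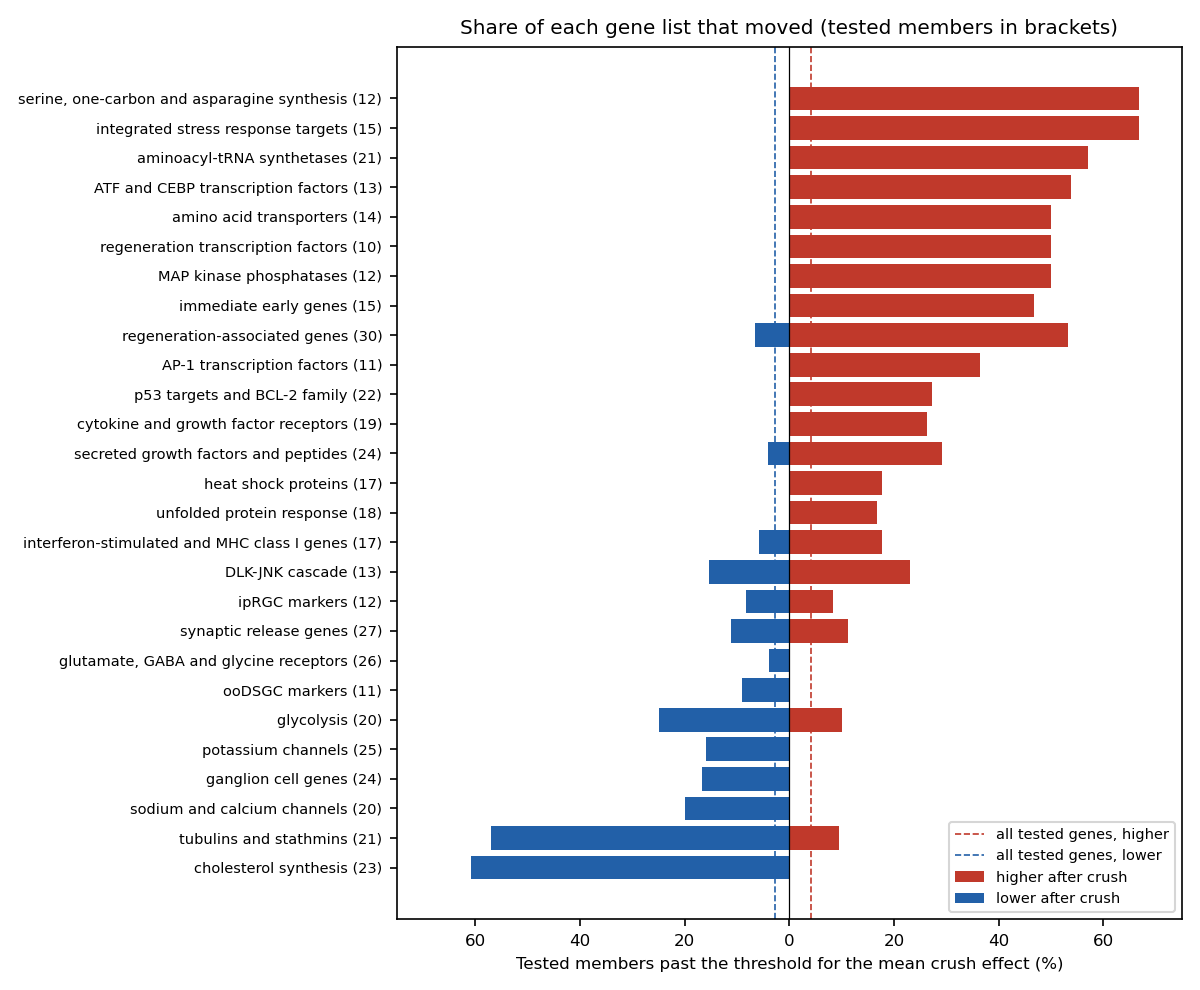
Share of the tested members of each gene list (number in brackets) that passed the threshold for a higher (red, right) or lower (blue, left) mean crush effect, with the shares over all genes tested as dashed lines (4.13% and 2.85%). Integrated stress response targets reach 66.7% higher and cholesterol synthesis 60.9% lower.

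A stricter reading asks that the crush effect of each class pass separately, within the fit that pools the residual spread of all 12 libraries. The classes share no library, and 99 genes (0.542% of those tested) met it, 73 higher (0.4%) and 26 lower (0.142%). When each class was fitted alone, on its own 6 libraries, only 5 higher and 6 lower genes met it. In Opn4 cells 203 genes passed (0.69% of those tested higher, 0.421% lower), and in HB9 cells 1172 (3.84% higher, 2.57% lower). Of the 203 in Opn4 cells 48.8% were also past it in HB9 cells in the same direction, and of the 1172 in HB9 cells 8.45% were also past it in Opn4 cells. Opn4 libraries varied more, with a median within-group SD of 0.57 against 0.39 for HB9 libraries. Among the 383 risers 265 had the larger estimate in HB9 cells, as did 165 of the 257 fallers. The difference between the class effects itself passed for 26 of the 640 shared genes, 24 of them larger in HB9 cells, and for 149 (0.816%) of all genes tested. Atf3, Ecel1, Cox6a2, Cdkn1a, Slc3a2, Slc7a5, Gars, Asns and Kcnab2 were among those larger in HB9 cells, and the differences of Slc3a2 and Slc7a5 alone among these passed in all 24 alternative settings. Across all tested genes the 2 effects had the same sign for 56.7%, with a Pearson correlation of 0.22 and a Spearman correlation of 0.20 over genes, which are not independent replicates.

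A further 120 genes lay higher without overlap in both classes and 115 lower, but their mean effect did not pass the threshold, and 213 genes (1.17%) lay without overlap in opposite directions. Lack of overlap alone held for 503 genes upward (2.75%) and 372 downward (2.04%). Within single classes it held for 7.38% of genes upward and 7.33% downward in Opn4 cells, and for 19.0% and 12.6% in HB9 cells. On a principal component analysis of all genes the leading component (31.4% of the variance) separated the classes, and the next (14.4%) separated crush from sham in both, with sham libraries from 17.5 to 63.4 and crush libraries from −51.6 to −27.6. Opn4 sham replicate 1 and Opn4 crush replicate 1 stood apart on the following component. Without this pair 585 genes rose in both classes and 319 fell, under a definition that then compared fewer libraries.

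Transcripts of other retinal cells were present in every library. The summed level of 15 rod genes ranged from 784.5 to 2198 RPKM in Opn4 sham libraries and from 1191 to 3438 RPKM in Opn4 crush libraries. In HB9 cells it ranged from 309.5 to 1013 RPKM after sham and from 641.1 to 1042 RPKM after crush. None of the 15 passed for the mean crush effect, but 13 had a positive estimate. Their median effect was 0.56 (0.52 in Opn4 and 0.69 in HB9 cells), against 0.04 over all genes tested. The part of rod RNA in the shared response was not tested beyond a fit with the rod level as a covariate. In that fit 337 genes rose and 214 fell in both classes. The summed level of 12 glial genes was higher after crush, from 581.4 to 634.5 RPKM and then 847.8 to 1044 RPKM in Opn4 cells and from 427.3 to 476.2 RPKM and then 852.2 to 2268 RPKM in HB9 cells. Clu, clusterin, a secreted chaperone that neurons also make, had the highest mean of these genes in both crush groups. It rose in both classes, from 236, 211 and 287 RPKM to 536, 557 and 682 RPKM and from 195, 248 and 227 RPKM to 1616, 1987 and 705 RPKM. Of these 12 genes 7 were tested, with a median effect of 1.11: Clu and Vim were higher (28.6%), Dkk3 was lower, and 4 did not pass. Vim, an intermediate filament protein of glia, had a mean effect of 1.87 ± 0.52 (adjusted p = 0.047) that lost its call in 20 of 24 settings. Dkk3, a secreted Wnt pathway protein, fell in both classes (−0.91 ± 0.25, adjusted p = 0.0477) and lost its call in 18. Among the defining glial markers Gfap stayed below 1 RPKM in every library, and Rlbp1 did not pass (1.52, adjusted p = 0.188). Of 14 microglial genes 10 were below 1 RPKM in all libraries, among them C1qa. Their summed level was 35.68 to 63.15 RPKM in HB9 sham libraries and 210.4 to 249.3 RPKM in HB9 crush libraries, with the lysosomal gene Cd68 at 112 RPKM on average in the latter. Csf1r, a defining microglial receptor, did not pass (0.19, adjusted p = 0.813). The part of these cells in the shared response was not tested.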

How the data were processed

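Values are RPKM per gene and library as deposited by the authors. Tools named, per the submitters' processing notes, are Bowtie, TopHat2 2.0.11 and edgeR 3.14.0, with build mm10; their roles are not given, and how reads were counted is not given in the sources used here. A gene was tested if 3 or more libraries reached an RPKM of 1 (18269 of 38887 did), as log2(RPKM + 1) with 4 group means in 1 linear model, by lmFit and contrasts.fit, then eBayes with a trend on intensity (limma 3.58.1, R 4.3.3). The pseudocount of 1 understates changes of low genes. The script was tested on simulated data. The definition of shared genes, the gene lists and the motifs were chosen with earlier results of these data known, so lists are described by counts and medians without a test.

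Named genes were Atf3, Jun and Ecel1, then the 25 shared risers and 25 shared fallers with the largest smaller class effect, leaving 5 and 6 clone-named genes, pseudogenes or microRNAs counted only, then up to 4 called members per list. Some genes the rule names are not reported here, nor drawn in the figures by name. Other genes named were chosen after their values were seen. Where IDs shared a symbol, the protein-coding one was used. Promoters were taken from RefSeq. Alternatives covered pseudocount, filter, scaling, weights, a replicate block, a rod covariate, single libraries left out, and limma voom on whole reads recovered from the RPKM steps (all short-gene values, 100%, lay within 0.01 read of a whole number). Recovered reads summed to 35002054 to 68414039 per library, above the scaling totals, and served that alternative only.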

Additional observations from a re-analysis of the deposited data

Results flagged for a closer look

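For 21 named genes the crush effect differed between the classes by the test of the difference itself (limma, adjusted p under 0.05, Opn4 minus HB9 on the log2 scale). Of these, 9 moved the same way in both classes. The effect was smaller in Opn4 cells for Cdkn1a (−4.04 ± 0.49, adjusted p = 0.00434), Cox6a2 (−3.87 ± 0.71), Ecel1 (−3.68 ± 0.65), Atf3 (−3.18 ± 0.44), Slc3a2 (−2.51 ± 0.36), Slc7a5 (−2.21 ± 0.36), Asns (−1.34 ± 0.26, adjusted p = 0.0359) and Gars (−1.18 ± 0.17). The fall of Kcnab2 was also smaller in Opn4 cells (1.30 ± 0.24). None of these 9 differences changed sign in the 24 alternative settings, but that of Asns did not pass in 14 of them, those of Cox6a2 and Kcnab2 in 10 each, that of Ecel1 in 5, that of Atf3 in 2, and those of Cdkn1a and Gars in 1 each. For Cox6a2 the settings included the removal of any 1 HB9 library, with adjusted p up to 0.0779, and for Ecel1 the removal of HB9 sham replicate 2 or HB9 crush replicate 1 or 2. At a pseudocount of 0.1 the adjusted p was 0.107 for Atf3, 0.153 for Ecel1 and 0.166 for Cox6a2, and with limma voom on recovered reads it was 0.611, 0.844 and 0.368.

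The other 12 did not meet the definition of a shared change. HB9 cells had the higher effect for Sprr1a (−8.98), Crh (−7.80), Ucn (−6.23), Cd68 (−6.04), Slc7a3 (−4.76), Gadd45a (−3.13), Adcyap1 (−2.55) and Hspa5 (−1.51), with SE between 0.24 and 1.20. Opn4 cells had the higher effect for Scgn (6.31 ± 1.32), Thbs1 (4.66 ± 0.57), Mnx1 (3.24 ± 0.60) and Rab3a (1.07 ± 0.19). The mean effects of Mnx1 (−2.46 to −1.16 over the alternative settings) and Rab3a (−0.85 to −0.66) were negative. Their positive differences thus went with a fall in HB9 cells. Of these 12 differences that of Adcyap1 passed in all 24 alternative settings. The difference did not pass in 17 settings for Cd68, 16 for Gadd45a, 15 for Scgn, 10 for Mnx1, 9 for Slc7a3 and 6 for Rab3a, and in 1 or 2 for the other 5 genes. Thbs1, a secreted thrombospondin, went in Opn4 cells from 5.89, 8.03 and 11.98 RPKM to 219.5, 166 and 191 RPKM.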

How the results depend on the processing

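Of 122 named genes past the threshold, 120 had a value under all 24 alternatives, and 91 of these kept their call and direction in each. Spata33 and Tfap2b had no value under the filter of RPKM at least 5. No named gene reversed where it had a value, which their selection in these same libraries made likely. Between 461 and 635 of the 640 shared genes met the definition again. Median centring gave 808 lower genes and 437 shared fallers. Without the intensity trend there were 289 lower genes, 167 shared fallers, and 43 higher and 12 lower genes past the threshold in each class. Those last counts were 48 and 13 with sample weights, 15 lower without a filter, and 5 and 6 when each class was fitted alone. The difference between classes passed for 90 genes at a pseudocount of 0.1. The 2 Opn4 libraries that stood apart were left out as an alternative added after seeing the data: 585 shared risers, and 16 lower genes past the threshold in each class. Leaving out 1 library gave 503 to 741 higher and 284 to 542 lower genes, 306 to 489 shared risers and 182 to 363 shared fallers, 52 to 73 and 12 to 32 past the threshold in each class, and 61 to 156 for the difference. Lower genes numbered 284 to 328 when any HB9 library other than crush replicate 2 was left out. Lower genes past the threshold in each class numbered 12 to 16 without Opn4 sham replicate 1 or 3, Opn4 crush replicate 3, any HB9 sham replicate or HB9 crush replicate 1. The difference passed for 93 genes without Opn4 sham replicate 3 and for 61 to 90 without any 1 HB9 library. Limma voom on recovered reads, also added, gave 372 shared risers and 252 fallers.

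Replicate numbers occur in every group, but same-numbered libraries did not deviate together: correlations over 18 pairs ran from −0.022 to 0.081. With the replicate block 345 genes rose and 225 fell in both classes, and the difference passed for 98. Genes near 0 after sham rest on few reads, and pools of 30 cells limit their precision.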

Other observations

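Fasn, Scd2 and Fads2, which were on no list and were picked because they fell, fell in both classes; other genes of fatty acid synthesis were not tallied. Fasn, fatty acid synthase, had a mean effect of −1.53 ± 0.21 (adjusted p = 0.000859, limma), Scd2, a stearoyl-CoA desaturase, −1.20 ± 0.16, and Fads2, a fatty acid desaturase, −1.14 ± 0.23. In Opn4 cells Fasn was at 83.5, 115 and 78.1 RPKM after sham and 50.1, 29.6 and 47.4 RPKM after crush. In HB9 cells it was at 74.6, 91.2 and 131 RPKM after sham and 21.1, 19.1 and 35.6 RPKM after crush.

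Csrp1, Zyx, Mical1 and Snx33, also picked after their values were seen and on no list, rose in both classes. The LIM protein Csrp1 had effects of 2.22 ± 0.33 in Opn4 cells and 2.45 ± 0.33 in HB9 cells, and was at 3.42 to 4.17 RPKM in Opn4 sham libraries and 18.2 to 24.1 RPKM in Opn4 crush libraries. Zyx, zyxin, had effects of 1.57 ± 0.27 and 1.64 ± 0.27. Mical1, an actin oxidase, had effects of 2.12 ± 0.48 and 2.41 ± 0.48, and Snx33, a sorting nexin, 2.20 ± 0.46 and 2.36 ± 0.46.

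The microRNA gene Mir147 lies within AA467197, and both rose in both classes, by 5.07 ± 0.44 and 4.27 ± 0.45 on average. Their reads cannot be told apart at this locus. Fxyd7, a regulator of the sodium pump, fell in both classes, from 306, 238 and 265 RPKM to 127, 87.2 and 109.7 RPKM in Opn4 cells and from 400.5, 359 and 394 RPKM to 37.5, 24.99 and 13.4 RPKM in HB9 cells.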
